A study of Mus musculus with 13 samples.

Results

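The expression of 10 genes of the NRF2 antioxidant pathway was followed in mouse liver after bile duct ligation (BDL), with and without inhibition of miR-873-5p. The genes were taken by name (Nfe2l2, Keap1, Nqo1, Gclc, Gclm, Hmox1, Srxn1, Txnrd1, Gpx2 and Slc7a11) and matched to the Entrez Gene numbers of the tables, where all 10 were found among 23785 genes. RNA was sequenced from whole liver of 13 C57 mice aged 3 months, wild type for Gnmt. There were 5 mice without ligation (no BDL, untreated), 4 ligated mice given a control oligonucleotide (miR-Ctrl BDL) and 4 ligated mice given the inhibitor anti-miR-873-5p (anti-miR BDL). Both oligonucleotides were injected intravenously at 60 µg per injection on days 3 and 5, and ligated livers were taken on day 7. The no BDL mice had neither surgery nor injection as far as the sources describe, so ligation, surgery and injection cannot be told apart in comparisons against them. By their labels the 2 BDL groups differ in the oligonucleotide alone.

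NRF2, the product of Nfe2l2, is a transcription factor that KEAP1 holds in the cytoplasm and hands to a ubiquitin ligase for degradation. Electrophiles and oxidants modify KEAP1, NRF2 escapes degradation, pairs with a small MAF protein and binds antioxidant response elements (AREs) in the promoters of its targets. Activity is therefore set mainly at the level of the protein, and the mRNA of the target genes is the usual readout. In liver the pathway protects hepatocytes and bile duct cells against reactive metabolites, drugs and retained bile acids.

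Libraries held between 12185333 and 19689037 counts. Values per mouse are given as normalized CPM, counts relative to the library total after TMM scaling (trimmed mean of M values), on a scale common to the 13 mice. Fold changes come from the quasi-likelihood test of edgeR, with p-values adjusted after Benjamini and Hochberg over all genes tested, and a gene was called at an adjusted p under 0.05. The 20 most abundant genes took 31.3 to 45.2% of counts without BDL and 14.8 to 20.1% in the BDL livers of the same tables. TMM scaling corrects for that difference and left the median over all genes at -0.01 (log2 fold change) in both comparisons against no BDL. Scaling by library size alone moved that median to 0.79 for miR-Ctrl BDL and 0.82 for anti-miR BDL, with 9360 genes higher and 275 lower in place of 2491 and 2175, and 10063 and 131 in place of 1715 and 1108. Differences against no BDL are therefore relative to the bulk of genes. For the comparison of the 2 BDL groups the authors had filtered outliers, which left mice 1, 2 and 4 of miR-Ctrl BDL and mice 1, 3 and 4 of anti-miR BDL.

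After BDL with the control oligonucleotide, 8 of the 10 genes were higher than without BDL and none was lower, against 35.7% of all 13072 genes called in either direction and 19.1% called higher. The 8 genes were Nfe2l2, Nqo1, Gclm, Slc7a11, Gpx2, Txnrd1, Srxn1 and Hmox1. With the counts and scaling of that comparison, the lowest BDL mouse lay above the highest no BDL mouse in all 8. That arrangement was found for 14.8% of all genes in that direction and 29.6% in either. The median log2 fold change over the 10 was 1.15. On the scale common to the 13 mice Gclm overlapped, with 117 in miR-Ctrl BDL mouse 2 and 121 in no BDL mouse 2. Gpx2 passed the filter on low counts only through the BDL mice, in which it is high, so its call is no support, and without it 7 of 9 genes were higher and the median was 1.01. In the anti-miR BDL mice, 4 of the 10 genes (Nqo1, Gpx2, Srxn1 and Hmox1) were higher than without BDL and none was lower, against 21.5% of 13130 genes called and 13.1% called higher. The groups were apart for 3 of the 10, against 10.1% of all genes apart in that direction and 18.3% in either, and the median log2 fold change was 0.51. Without Gpx2, which again passed the filter only through the BDL mice, 3 of 9 were higher, 2 of 9 were apart and the median was 0.40. Between the 2 BDL groups none of the 10 genes passed the test, nor did any of 13746 genes (0% called).

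**Figure D1:**
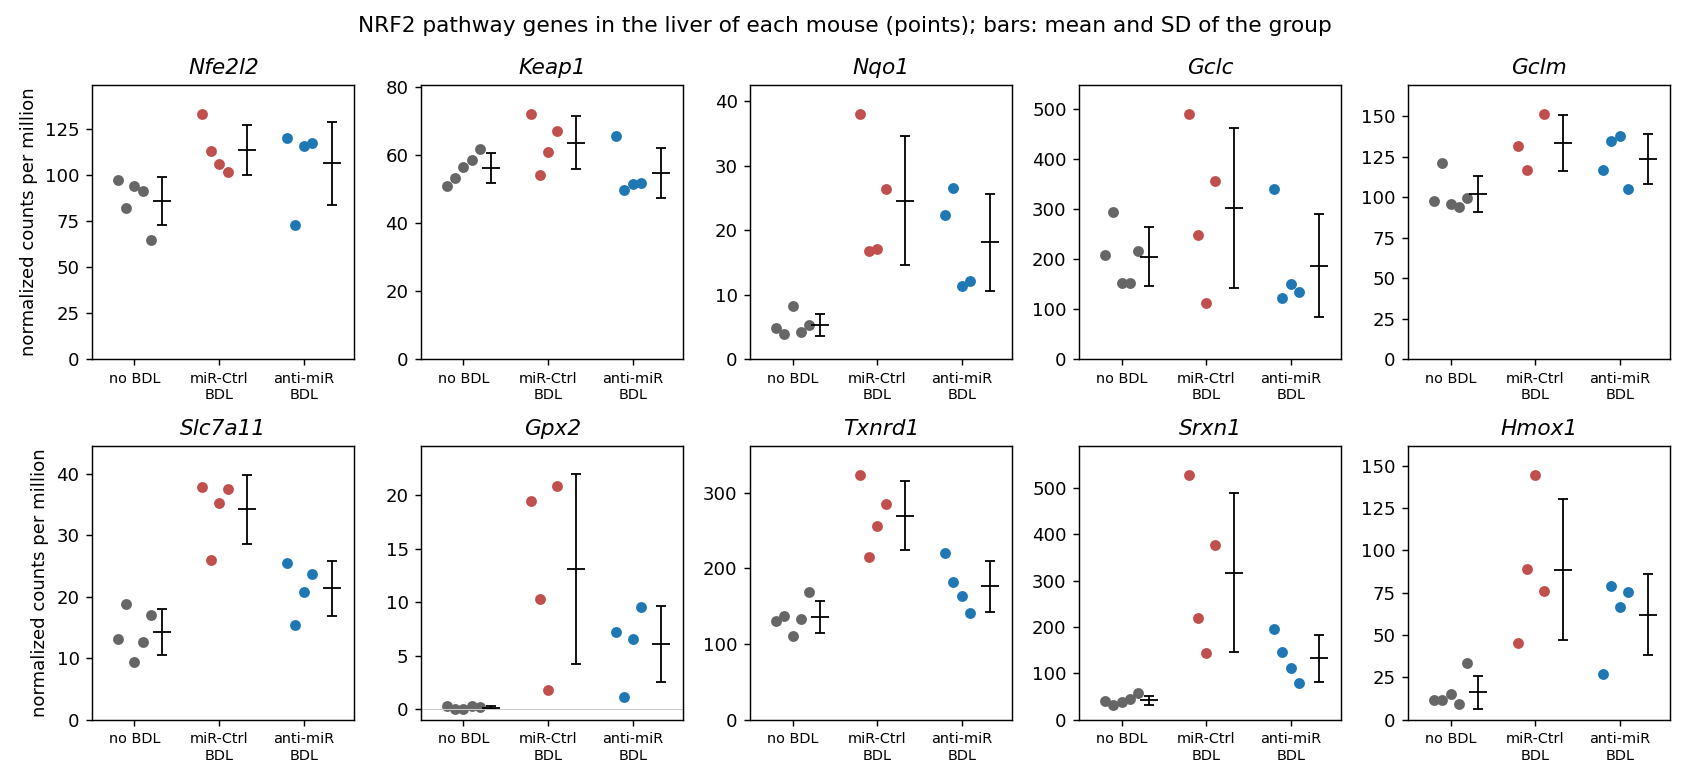
Normalized CPM (y axis, linear, a separate scale for each gene) of the 10 NRF2 pathway genes in each mouse of the 3 groups; points are mice and the bars beside them are the group mean and SD. For Nqo1, Gpx2 and Srxn1 all 8 ligated mice lie above all 5 mice without BDL, and Gclm has no value on this scale for miR-Ctrl BDL mouse 3.

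Nfe2l2 (Entrez 18024, chr2:75675513-75704663 in GRCm38) encodes NRF2 itself. It measured 97.4, 82.0, 94.1, 91.3 and 64.8 normalized CPM in the no BDL mice, 133, 113, 106 and 102.0 in the miR-Ctrl BDL mice, and 120.1, 72.7, 116 and 118 in the anti-miR BDL mice. Every miR-Ctrl BDL mouse was above every no BDL mouse, while anti-miR BDL mouse 2 lay within the no BDL range. Against no BDL the log2 fold change was 0.43 ± 0.14 (SE) for miR-Ctrl BDL (edgeR, adjusted p = 0.0361) and 0.34 ± 0.18 for anti-miR BDL (edgeR, adjusted p = 0.208, 95% interval -0.06 to 0.74). The call in miR-Ctrl BDL was lost on leaving out no BDL mouse 2, 3 or 4 (edgeR, adjusted p = 0.0716, 0.0524 and 0.0574) or miR-Ctrl BDL mouse 1 or 2 (edgeR, adjusted p = 0.110 and 0.0764). Without anti-miR BDL mouse 2, by contrast, Nfe2l2 was called in that group, with a log2 fold change of 0.48 (edgeR, adjusted p = 0.0258).

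Keap1 (Entrez 50868, chr9:21229730-21239332) encodes the repressor of NRF2 and varied little. Its normalized CPM were 50.7, 53.3, 56.3, 58.4 and 61.9 without BDL, 71.9, 53.9, 61.0 and 67.1 in miR-Ctrl BDL, and 65.5, 49.8, 51.4 and 51.8 in anti-miR BDL. The 3 groups overlapped. Its log2 fold change against no BDL was 0.20 ± 0.11 (SE) in miR-Ctrl BDL (edgeR, adjusted p = 0.172, 95% interval -0.04 to 0.44) and -0.01 ± 0.11 in anti-miR BDL (edgeR, adjusted p = 0.944, 95% interval -0.27 to 0.24), the latter turning positive with library size scaling (0.80).

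Nqo1 (Entrez 18104, chr8:107388225-107403205) encodes NAD(P)H quinone dehydrogenase, which reduces quinones by 2 electrons and is a classical NRF2 target. Without BDL it measured 4.84, 3.81, 8.25, 4.19 and 5.33 normalized CPM. It measured 38.0, 16.7, 17.1 and 26.5 in miR-Ctrl BDL and 22.4, 26.6, 11.4 and 12.2 in anti-miR BDL. All 8 ligated mice were above all 5 mice without BDL, and the BDL groups overlapped each other. The rise was 4.74-fold in miR-Ctrl BDL (log2 fold change 2.24 ± 0.30, edgeR, adjusted p = 0.000620) and 3.47-fold in anti-miR BDL (1.79 ± 0.30, edgeR, adjusted p = 0.00444).

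Glutathione synthesis starts with glutamate-cysteine ligase, whose catalytic and modifier subunits are encoded by Gclc and Gclm. Gclc (Entrez 14629, chr9:77754535-77794489) was spread widely in both BDL groups. It measured 207, 294, 152, 153 and 216 normalized CPM without BDL, 489, 247, 112 and 355 in miR-Ctrl BDL, and 339, 122, 150.0 and 133 in anti-miR BDL. MiR-Ctrl BDL mouse 3 was the lowest of all 13 mice and miR-Ctrl BDL mouse 1 the highest. Gclc did not pass in either comparison against no BDL. Its log2 fold change was 0.59 ± 0.37 in miR-Ctrl BDL (edgeR, adjusted p = 0.248, 95% interval -0.24 to 1.41), but 0.85 without mouse 3, when it passed (edgeR, adjusted p = 0.0269). In anti-miR BDL it was -0.11 ± 0.33 (edgeR, adjusted p = 0.842, 95% interval -0.85 to 0.63), a sign that library size scaling turned (0.73).

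Gclm (Entrez 14630, chr3:122245487-122267215) stayed in a narrow range. It measured 97.9, 121, 95.9, 94.2 and 99.8 normalized CPM without BDL, 132, 117 and 151 in miR-Ctrl BDL mice 1, 2 and 4, and 117, 135, 138 and 105 in anti-miR BDL. The reads assigned to Gclm for the same mouse differed between tables by up to 222 (11.5%), the gene overlaps Gm46822 and Gm6061 in the annotation, and 3.92% of its 50-base windows occur in other genes, so its values are uncertain. On the common scale miR-Ctrl BDL mouse 2 (117) lay below no BDL mouse 2 (121). Within the table of miR-Ctrl BDL and no BDL the 2 groups were just apart, at 69.1 to 89.0 and 89.3 to 115 normalized CPM. There the log2 fold change was 0.43 ± 0.12 (edgeR, adjusted p = 0.0167), and the call was lost without miR-Ctrl BDL mouse 4 (edgeR, adjusted p = 0.0545). In anti-miR BDL it was 0.31 ± 0.13 and did not pass (edgeR, adjusted p = 0.114).

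Slc7a11 (Entrez 26570, chr3:50364936-50499087) encodes xCT, the light chain of the exchanger that imports cystine, the source of cysteine for glutathione. Besides NRF2 it is a known target of ATF4, the transcription factor of amino acid shortage. Its RefSeq promoter is shown because it holds a match for each factor: 1 ARE (TGACNNNGC or TGAGNNNGC on either strand) at -97 to -89 from the start site, and 2 amino acid response elements (AARE, TGATGNAA on either strand) at -66 to -59 and -47 to -40. The window runs from 250 bases before to 50 bases after the start site (chr3:50443564-50443863, GRCm38.p6, minus strand, inside the annotated span of the gene), and capitals mark the 3 matches.
Slc7a11 promoter: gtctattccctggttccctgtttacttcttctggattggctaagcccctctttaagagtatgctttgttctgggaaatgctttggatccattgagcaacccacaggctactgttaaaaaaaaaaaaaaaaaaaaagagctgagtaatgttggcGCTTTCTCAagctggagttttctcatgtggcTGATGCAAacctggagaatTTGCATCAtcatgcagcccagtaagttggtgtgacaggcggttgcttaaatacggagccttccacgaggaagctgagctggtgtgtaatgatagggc

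Slc7a11 measured 13.2, 18.9, 9.36, 12.7 and 17.1 normalized CPM without BDL, 38.0, 26.0, 35.3 and 37.6 in miR-Ctrl BDL, and 25.6, 15.4, 20.8 and 23.8 in anti-miR BDL. The miR-Ctrl BDL mice were above all others on this scale, and only anti-miR BDL mouse 2 lay within the no BDL range. The rise in miR-Ctrl BDL was 2.44-fold (log2 fold change 1.29 ± 0.20, edgeR, adjusted p = 0.00126). In anti-miR BDL the log2 fold change was 0.61 ± 0.22 and did not pass (edgeR, adjusted p = 0.0719), whereas without mouse 2 it was 0.74 and passed (edgeR, adjusted p = 0.0247).

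Gpx2 (Entrez 14776, chr12:76792335-76795554), a glutathione peroxidase of epithelia, was almost absent without BDL. It had 3, 0, 0, 3 and 2 reads in the no BDL mice, 324, 173, 22 and 348 in miR-Ctrl BDL and 115, 15, 109 and 195 in anti-miR BDL. Every ligated mouse thus had more reads than every mouse without BDL. The ratio of summed reads, scaled for depth, was 104 in miR-Ctrl BDL (867 reads against 8, 95% exact interval 52.5 to 242, counting error only) and 48.9 in anti-miR BDL (434 reads against 8, 24.6 to 114). Its test is not used as support, because the gene was kept only through the BDL groups. MiR-Ctrl BDL mouse 3 and anti-miR BDL mouse 2 had the lowest Gpx2 of their groups, at 1.83 and 1.14 normalized CPM, and also the lowest sums over bile duct cell markers. Nqo1 in anti-miR BDL went the other way, with its highest value in mouse 2 (26.6). In miR-Ctrl BDL Nqo1 was about equally low in mouse 2 (16.7), with the highest marker sum of that group (1727), and in mouse 3 (17.1). Mice 1 and 4 of that group had more (38.0 and 26.5). Of the 50-base windows of Gpx2, 5.97% also occur in another gene, mainly the pseudogene Gpx2-ps1.

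The thioredoxin branch was represented by Txnrd1 and Srxn1. Srxn1 (Entrez 76650, chr2:152105524-152111376) encodes sulfiredoxin, which restores overoxidised peroxiredoxins. Its promoter is shown because it held the most ARE matches of the 8 members whose promoters were read, with 3 (-158 to -150, -45 to -37 and +29 to +37 from the start site), and 2 AP-1 matches (TGACTCA or TGAGTCA, at -102 to -96 and -45 to -39), the latter inside the middle ARE. Capitals mark these matches (chr2:152105274-152105573, GRCm38.p6, plus strand, RefSeq), and matches on the opposite strand appear as their reverse complement.
Srxn1 promoter: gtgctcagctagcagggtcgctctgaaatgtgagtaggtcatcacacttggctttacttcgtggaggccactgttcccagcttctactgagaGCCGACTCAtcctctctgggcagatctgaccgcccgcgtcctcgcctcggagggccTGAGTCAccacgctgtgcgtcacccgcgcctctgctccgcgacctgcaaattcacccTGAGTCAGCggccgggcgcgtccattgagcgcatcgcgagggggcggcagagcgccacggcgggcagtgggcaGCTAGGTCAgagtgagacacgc

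Srxn1 measured 41.3, 31.2, 37.9, 44.0 and 57.2 normalized CPM without BDL. It measured 528, 219.8, 145 and 378 in miR-Ctrl BDL, and 196, 146, 111 and 78.4 in anti-miR BDL. All ligated mice were above all mice without BDL, and 3 of the 4 miR-Ctrl BDL mice were above every anti-miR BDL mouse, the exception being mouse 3. The rise was 7.66-fold in miR-Ctrl BDL (log2 fold change 2.94 ± 0.36, edgeR, adjusted p = 0.000411) and 3.19-fold in anti-miR BDL (1.67 ± 0.26, edgeR, adjusted p = 0.00326). The reads of the same mouse differed between tables by at most 4 (0.187%).

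Txnrd1 (Entrez 50493, chr10:82833951-82897724, overlapping Gm38560 and Eid3) encodes cytosolic thioredoxin reductase, which keeps thioredoxin reduced at the expense of NADPH. It measured 131, 137, 111, 134 and 168 normalized CPM without BDL, 323, 215, 256 and 285 in miR-Ctrl BDL, and 219.8, 182, 164 and 141 in anti-miR BDL. The miR-Ctrl BDL mice lay apart from the no BDL mice, but 2 of the 4 anti-miR BDL mice lay within the no BDL range. The rise was 2.02-fold in miR-Ctrl BDL (log2 fold change 1.01 ± 0.16, edgeR, adjusted p = 0.00118). In anti-miR BDL the log2 fold change was 0.40 ± 0.16 and did not pass (edgeR, adjusted p = 0.110, 95% interval 0.03 to 0.77 before adjustment).

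Hmox1 (Entrez 15368, chr8:75093618-75100593) encodes heme oxygenase 1, which degrades heme to biliverdin, iron and carbon monoxide, and which macrophages that clear red cells also express. It measured 11.7, 11.9, 15.1, 9.37 and 33.2 normalized CPM without BDL, 45.1, 88.8, 144 and 75.9 in miR-Ctrl BDL, and 27.2, 79.0, 66.3 and 75.5 in anti-miR BDL. No BDL mouse 5 stood above the other mice of its group and above anti-miR BDL mouse 1. Hmox1 rose 5.49-fold in miR-Ctrl BDL (log2 fold change 2.46 ± 0.42, edgeR, adjusted p = 0.00192) and 3.86-fold in anti-miR BDL (1.95 ± 0.41, edgeR, adjusted p = 0.0107). Summed macrophage markers were highest of the no BDL mice in mouse 5 (643) and lowest of the anti-miR BDL mice in mouse 1 (393). In miR-Ctrl BDL, mouse 3 had the highest Hmox1 and the lowest macrophage sum of its group (663).

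Levels between genes were compared as normalized counts per kilobase of exon, with exon length as the union of all annotated exons of a gene. The order therefore depends partly on annotation. For Gpx2 that union (3222 bases) was as long as its whole locus (3220 bases), which lowers its level on this scale. Without BDL, Gclc had the highest mean level (54.3 ± 15.5, SD, n = 5), and its range did not meet that of Nfe2l2, the next (22.6 ± 3.46). Txnrd1 (19.2), Gclm (16.2), Srxn1, Keap1 and Hmox1 (9.30) followed, with neighbours whose ranges overlapped. Nqo1 (3.40), Slc7a11 (1.02) and Gpx2 (0.041) lay below them, each apart from the next. In miR-Ctrl BDL the order began with Srxn1 (113), Gclc (79.9), Hmox1 (50.6) and Txnrd1 (38.1), whose ranges overlapped with their neighbours'. Srxn1 had thus moved from the fifth place to the first by its mean, and Hmox1 from the seventh to the third. In anti-miR BDL Gclc (49.5) and Srxn1 (47.0) led with overlapping ranges, followed by Hmox1 (35.4) and Nfe2l2 (28.1). On this scale Gpx2 stayed low in both BDL groups, at 4.08 and 1.90, despite its large relative difference.

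**Figure D2:**
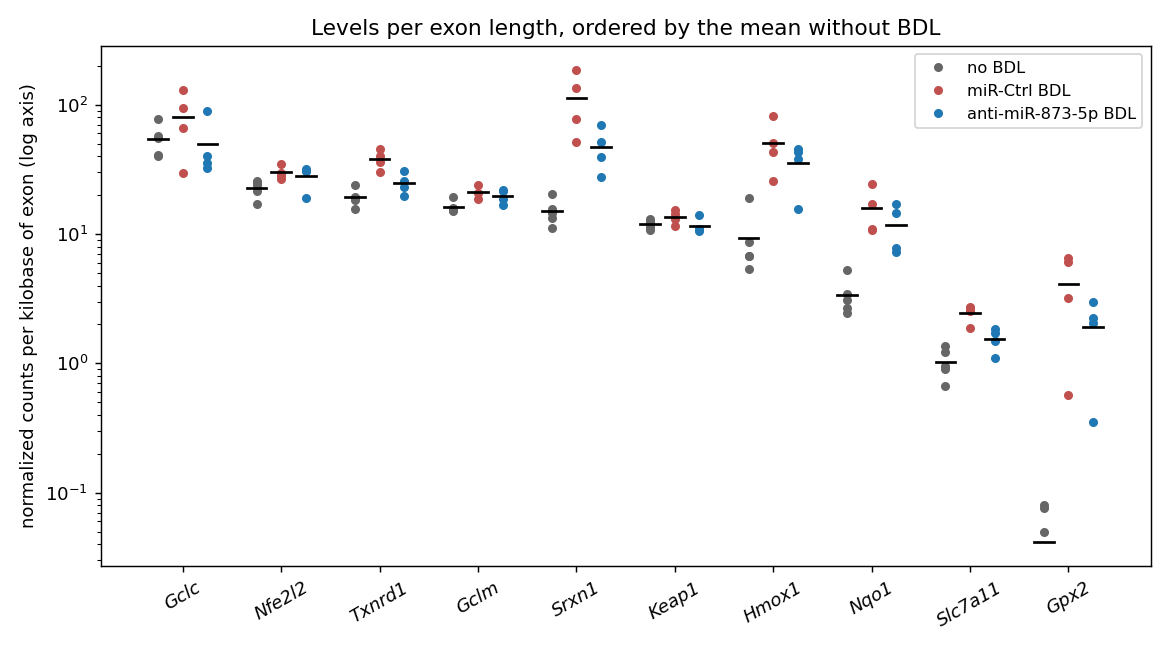
Normalized counts per kilobase of exon (y axis, log scale) of the 10 genes, ordered by their mean without BDL, in no BDL, miR-Ctrl BDL and anti-miR BDL mice; points are mice and black lines are group means. No BDL mice 2 and 3 had 0 reads of Gpx2 and have no point there, and Srxn1 had the highest mean in miR-Ctrl BDL (113).

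The comparison of the 2 BDL groups addressed whether inhibiting miR-873-5p altered these genes after ligation. It rested on 3 mice against 3, and no gene was called (edgeR, lowest adjusted p = 0.757). At an unadjusted p under 0.05 there were 863 genes (6.28%), among them Srxn1, Gpx2, Slc7a11 and Txnrd1. DESeq2 called 31 genes, 19 higher and 12 lower, among them Srxn1 with a log2 fold change of -1.56 (DESeq2, adjusted p = 0.0499).

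Within that table Srxn1 measured 644, 267 and 454 normalized CPM in miR-Ctrl BDL and 238, 134 and 94.4 in anti-miR BDL. Gpx2 measured 23.8, 12.5 and 25.1 against 8.73, 7.93 and 11.6, and Slc7a11 measured 46.3, 31.6 and 45.2 against 31.0, 25.0 and 28.7. For these 3 genes each anti-miR BDL mouse was below each miR-Ctrl BDL mouse, an arrangement that 4.77% of all genes showed in that direction (11.4% in either). The log2 difference was -1.55 ± 0.42 for Srxn1 (95% interval -2.55 to -0.55, edgeR, unadjusted p = 0.00800), -1.12 ± 0.29 for Gpx2 (-1.79 to -0.44, unadjusted p = 0.00566) and -0.54 ± 0.17 for Slc7a11 (-0.93 to -0.14, unadjusted p = 0.0144). Txnrd1 measured 395, 260.2 and 343 against 267, 197 and 169, with groups that overlapped (-0.66 ± 0.22, -1.18 to -0.13, unadjusted p = 0.0221). All 4 had an adjusted p of 0.757 (edgeR).

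The other members gave intervals that held 0. The log2 difference was -0.83 for Nqo1 (95% interval -1.69 to 0.03), -0.81 for Gclc (-1.78 to 0.16), -0.32 for Hmox1 (-1.25 to 0.62), -0.20 for Keap1 (-0.56 to 0.17) and -0.15 for Gclm (-0.51 to 0.20). Nfe2l2 itself was the member nearest to 0, at 0.02 (-0.29 to 0.33). In sign, 9 of the 10 members were negative, and their median was -0.60, while 48.8% of all genes were negative and the median of all was 0.01. The members were read in the same few mice, so their signs are not separate observations. With all 4 mice of each BDL group, the log2 difference was -1.26 for Srxn1, -1.10 for Gpx2, -0.68 for Slc7a11 and -0.61 for Txnrd1, and each had an adjusted p of 0.980 (edgeR). Within miR-Ctrl BDL, mouse 1 had the highest value for 7 of the 10 genes and mouse 2 the lowest for 5, and within anti-miR BDL mouse 1 had the highest for 6 and mouse 2 the lowest for 5.

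**Figure D3:**
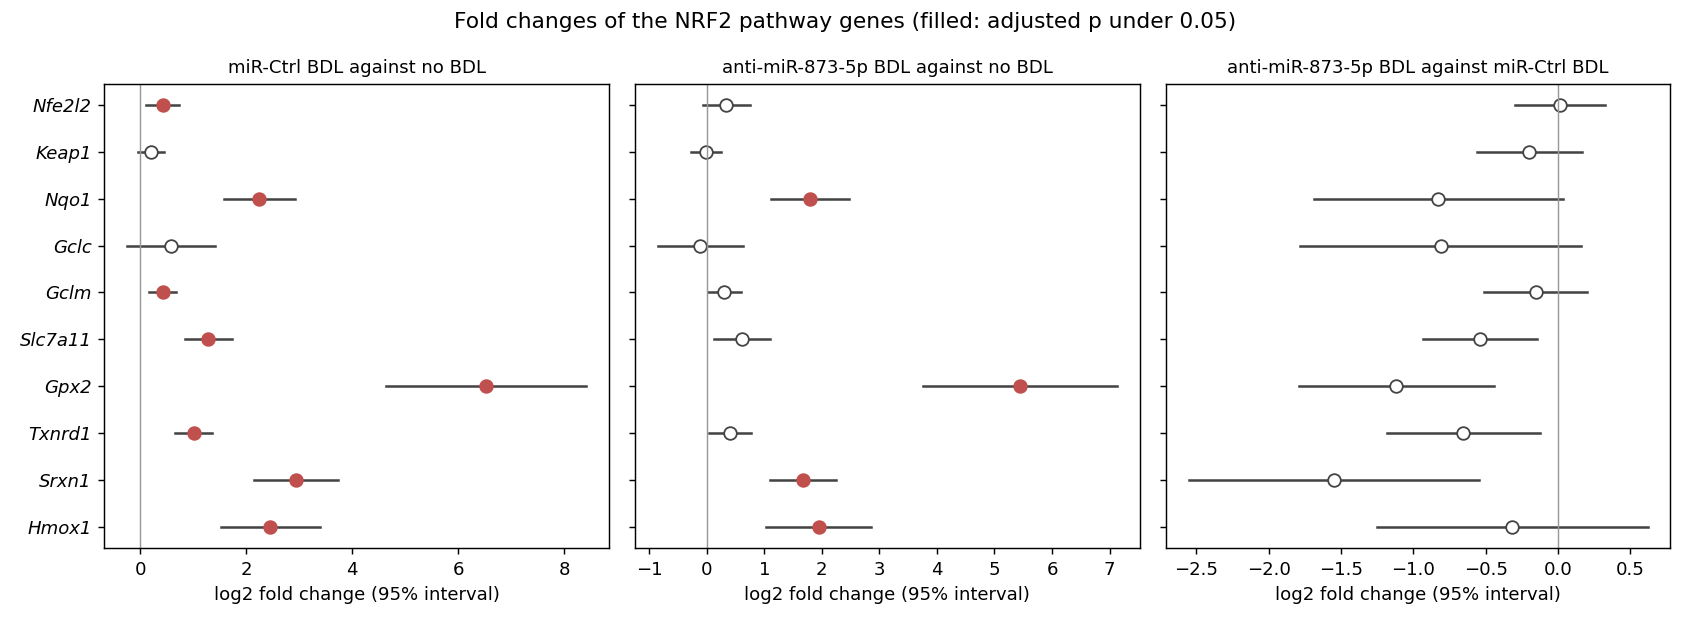
Log2 fold changes of the 10 genes (x axis) in the 3 comparisons; points are edgeR estimates, bars their 95% intervals, and filled points passed at an adjusted p under 0.05. The 8 filled points of miR-Ctrl BDL and the 4 of anti-miR BDL lie to the right of 0, while in the comparison of the BDL groups no point is filled and 9 of the 10 lie to the left of 0.

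MiR-873-5p pairs with target mRNAs through its seed, bases 2 to 8. The mature sequence of mmu-miR-873a-5p (RefSeq, chr4:36668556-36668576, GRCm38.p6, minus strand) is shown with the seed in capitals, because the inhibitor is directed at it. The mature microRNA was not analysed here. The reverse complement of the seed, GTTCCTG, occurred in the longest annotated 3′ UTR (GENCODE, GRCm38) of 2 of the 10 members, Keap1 and Gclm, against 14.1% of 21020 genes with a 3′ UTR. Each held 2 such matches, at bases 351 and 916 of the 972-base Keap1 UTR and at bases 3873 and 3881 of the 4335-base Gclm UTR. The median UTR of all genes was 961 bases, and the share of 14.1% makes no allowance for UTR length. Capitals mark the match in each window.
mmu-miR-873a-5p: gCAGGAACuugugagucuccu
Keap1, first match: ttttttctttgGTTCCTGcaactcggtga
Keap1, second match: cgcaatgcctgGTTCCTGcttattatttt
Gclm, first match: cagtggccaagGTTCCTGggttcctggag
Gclm, second match: aaggttcctggGTTCCTGgagaggaaaga

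Keap1 and Gclm had log2 differences of -0.20 ± 0.15 and -0.15 ± 0.15 between the BDL groups (edgeR, adjusted p = 0.847 and 0.870), both negative in sign and neither past the test.

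The wider pathway was read from a list of 40 further genes, grouped by role, of which 39 were tested (Ggt1 was not). In miR-Ctrl BDL 14 were higher and 3 lower than without BDL, against 19.1% and 16.6% of all genes, and their median log2 fold change was 0.50. Of those higher, Cbr3 and Abcc1 passed the filter on low counts only through the BDL mice, here and in anti-miR BDL. Among 10 tested genes of glutathione and thioredoxin metabolism, 6 were higher and 1 lower. Of 7 genes of carbonyl reduction and conjugation 3 were higher, and of 4 efflux pumps 2. Of 8 partners of NRF2 and KEAP1 and related factors, among them Bach1 and Nfe2l1, 2 were higher. Of 6 genes of NADPH supply 1 was higher and 2 were lower. None of 4 genes of heme and iron handling passed, and Fth1, the ferritin heavy chain, came nearest (edgeR, adjusted p = 0.0581). Without miR-Ctrl BDL mouse 3, however, Blvrb (0.54, edgeR, adjusted p = 0.0157) and Ftl1 (0.54, edgeR, adjusted p = 0.0356) were called higher. Ftl1 shares 50.9% of its 50-base windows with other genes.

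The largest rises on the list were those of Gsta1, a glutathione transferase, Cbr3, a carbonyl reductase, and Gstm3, another glutathione transferase. Gsta1 had 6.39, 8.20, 8.93, 5.10 and 4.77 normalized CPM without BDL, 430, 133, 10.5 and 331 in miR-Ctrl BDL and 207, 28.8, 52.6 and 30.2 in anti-miR BDL. Cbr3 had 0.34 to 0.95 without BDL, 36.2, 8.52, 3.58 and 21.6 in miR-Ctrl BDL, and 18.5, 2.96, 4.11 and 6.83 in anti-miR BDL. For both, every ligated mouse was above every no BDL mouse, and miR-Ctrl BDL mouse 3 was the lowest of its group for both. Gstm3 overlapped between groups, at 186 to 247 without BDL, 134 to 4715 in miR-Ctrl BDL and 207 to 2053 in anti-miR BDL. The log2 fold changes in miR-Ctrl BDL were 5.11 ± 0.83 for Gsta1, 4.85 ± 0.67 for Cbr3 and 3.57 ± 0.76 for Gstm3 (edgeR, adjusted p = 0.00152, 0.000733 and 0.00571), and that of Cbr3 was 4.20 without mouse 1. Since Cbr3 had 4 to 12 reads without BDL, and was kept only through the BDL mice, its test is not used as support. Gsta1 shares 90.5% of its 50-base windows with another gene, mainly Gsta2, and Gstm3 28.8%, mainly with Gstm1, so their counts cannot be assigned to a single copy.

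The 3 genes of the list that fell in miR-Ctrl BDL were Me1, malic enzyme (log2 fold change -1.59 ± 0.48, edgeR, adjusted p = 0.0279), Idh1, cytosolic isocitrate dehydrogenase (-0.70 ± 0.24, edgeR, adjusted p = 0.0423), and Prdx6, a peroxiredoxin (-0.48 ± 0.15, edgeR, adjusted p = 0.0320). Under library size scaling Me1 stayed negative (-0.78), Idh1 and Prdx6 turned positive (0.13 and 0.33), and none of the 3 passed. Me1 shares 22.9% of its windows with another gene. Each call was lost on leaving out no BDL mouse 1 or 4 or miR-Ctrl BDL mouse 2 (edgeR, adjusted p of 0.0520 to 0.102), and further for Me1 without miR-Ctrl BDL mouse 3, for Idh1 without no BDL mouse 2, 3 or 5, and for Prdx6 without no BDL mouse 2 or 3. Me1 and Idh1 supply NADPH to the glutathione and thioredoxin reductases.

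In anti-miR BDL 8 of the 39 genes were higher and 0 lower than without BDL (edgeR, against 13.1% and 8.44% of all genes, and with an unadjusted p under 0.05 for Idh1, Me1 and Prdx6 among those of negative sign, a level that 36.2% of all genes reached in either direction), and the median was 0.28. The 8 were 4 genes of glutathione and thioredoxin metabolism, 2 of carbonyl reduction, 1 partner and 1 efflux pump. The partner was Mafk, a small MAF protein (edgeR, adjusted p = 0.0398). Its call was lost without any 1 of the 5 no BDL mice or anti-miR BDL mouse 1, 2 or 3 (edgeR, adjusted p of 0.0502 to 0.106). Cbr3, Gsta1 and Gstm3 again had the largest rises, of 3.73 ± 0.58, 3.61 ± 0.60 and 1.99 ± 0.54 on the log2 scale (edgeR, adjusted p = 0.00326, 0.00431 and 0.0276). Without anti-miR BDL mouse 1 they were 2.93, 2.50 and 1.04, all past the test, and Me1 (-2.58, edgeR, adjusted p = 0.00670) and Idh1 (-1.15, edgeR, adjusted p = 0.00222) were then called lower. Prdx6 was called lower without no BDL mouse 5 (-0.52, edgeR, adjusted p = 0.0303). The call of Gstm3 was lost without no BDL mouse 1, 2, 3 or 4 or anti-miR BDL mouse 3 (edgeR, adjusted p of 0.0551 to 0.0667). Gss, glutathione synthetase, picked after its values were seen, rose in both comparisons (1.16 ± 0.17 and 0.90 ± 0.16, edgeR, adjusted p = 0.000898 and 0.00539). Both comparisons use the same 5 mice without BDL.

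Between the BDL groups none of the 39 genes passed in edgeR, and 5 had an unadjusted p under 0.05 (Sqstm1, Gss, Gsr, Txn1 and Pgd, all of negative sign), against 6.28% of all genes in either direction. In all, 35 were negative in sign, against 48.8% of all genes, with a median of -0.29. These genes were read in the same few mice, so their signs are not separate observations. The groups were apart for 5 of them, all lower in anti-miR BDL (4.77% of all genes), namely Sqstm1, the adaptor that binds KEAP1 for autophagy (-0.54), Bach1, a repressor that competes for AREs (-0.29), Gss (-0.40), Gsr, glutathione reductase (-0.75), and Fth1 (-0.20). The lowest adjusted p of these was that of Sqstm1 and of Gsr (edgeR, adjusted p = 0.757).

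**Figure D4:**
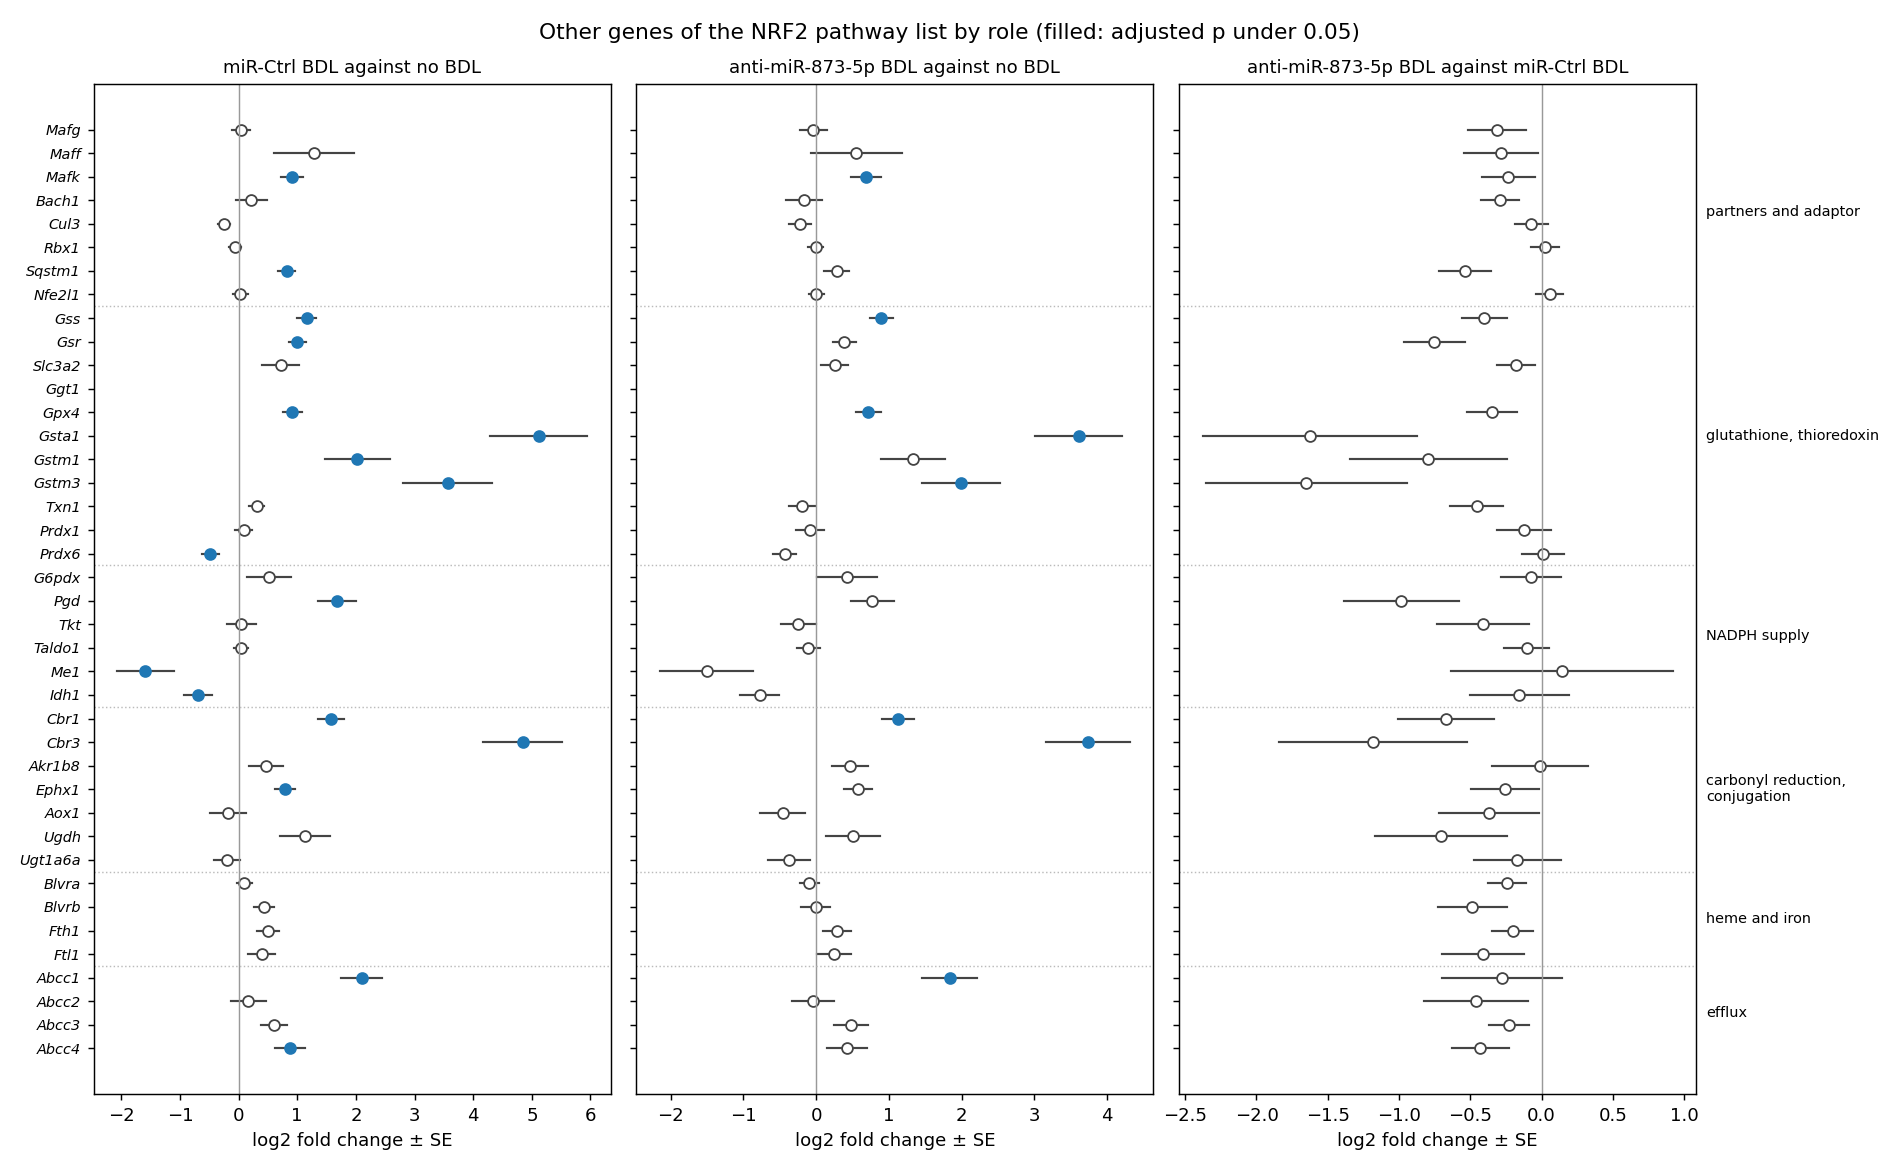
Log2 fold change with SE (x axis) of the further pathway genes by role in the 3 comparisons; filled points passed at an adjusted p under 0.05 (edgeR), and Ggt1 was not tested. Gsta1, Cbr3 and Gstm3 lie farthest to the right against no BDL, and 35 of 39 points lie to the left of 0 in the comparison of the BDL groups.

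Antioxidant enzymes outside the pathway list were read beside it. Of 10 such genes, 1 was higher and 3 lower in miR-Ctrl BDL (median log2 fold change -0.02), against 19.1% and 16.6% of all genes. In anti-miR BDL 1 was higher and 2 lower (median -0.20), against 13.1% and 8.44%. Gpx3, the plasma glutathione peroxidase, rose by 3.14 and 3.57 on the log2 scale (edgeR, adjusted p = 0.000359 and 0.00228). Cat, catalase, fell by 1.28 and 1.19 (edgeR, adjusted p = 0.00471 and 0.0339), and Sod1, cytosolic superoxide dismutase, fell by 0.85 and 0.72 (edgeR, adjusted p = 0.00110 and 0.0231). With library size scaling, Cat had -0.45 and -0.38 and Sod1 -0.05 and 0.07, and neither passed. In anti-miR BDL the call of Cat was also lost without no BDL mouse 1, 2, 3 or 4 or anti-miR BDL mouse 3 or 4 (edgeR, adjusted p of 0.0612 to 0.0988), and that of Sod1 without no BDL mouse 1 or 3 or anti-miR BDL mouse 3 or 4 (edgeR, adjusted p of 0.0512 to 0.0802). Between the BDL groups 3 of the 10 were negative in sign and none was called, with an adjusted p of at least 0.858 (edgeR).

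Since Slc7a11 is also a target of ATF4, 8 genes of that response were read beside it. In miR-Ctrl BDL 1 of the 8 was higher, against 19.1% of all genes, and in anti-miR BDL 2 were, against 13.1%. The 8 had a median log2 fold change of 0.71 and 0.39, and 8 and 7 of them were positive in sign, while 50.9% and 50.7% of all genes were negative. Atf3 was not called, at 0.90 and 0.38 (edgeR, adjusted p = 0.491 and 0.812). Without no BDL mouse 1 it was 3.10 and 2.58 and passed in both (edgeR, adjusted p = 0.00133 and 0.0131). Psat1, an enzyme of serine synthesis, was called in both comparisons, but it had 2 to 17 reads without BDL and passed the filter on low counts only through the BDL mice. It measured 2.29, 2.68, 24.2 and 2.16 normalized CPM in miR-Ctrl BDL and 1.63, 16.4, 1.57 and 4.92 in anti-miR BDL, so that 1 mouse of each group stood far above the others. Its log2 fold change was 3.37, and 1.69 without miR-Ctrl BDL mouse 3, in the former group. In the latter it was 3.03, and 1.89 without anti-miR BDL mouse 2, and the call there was lost without no BDL mouse 1, 2 or 3 (edgeR, adjusted p of 0.0558 to 0.0578). Asns, asparagine synthetase, passed the filter in the same way and was not called. Sesn2, a stress-induced inhibitor of growth signalling, was higher in anti-miR BDL (1.03, edgeR, adjusted p = 0.0203), and in miR-Ctrl BDL it passed only without no BDL mouse 3 (0.80, edgeR, adjusted p = 0.0475) or miR-Ctrl BDL mouse 4 (0.86, edgeR, adjusted p = 0.0234). Between the BDL groups the 8 genes had a median of 0.17, and none was called.

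Cell type markers moved with the same comparisons. In whole liver, fewer cells of a type and less RNA per cell cannot be told apart. All 6 bile duct cell markers were higher in both BDL groups (median log2 fold change 2.63 and 3.12), against 19.1% and 13.1% of all genes, and Krt19, Krt7 and Cftr among them passed the filter on low counts only through the BDL mice. Their summed level ran from 45.9 to 135 without BDL, 484 to 1727 in miR-Ctrl BDL and 233 to 1673 in anti-miR BDL. Of 8 macrophage markers 6 were higher in miR-Ctrl BDL and 1, Marco, in anti-miR BDL, against 19.1% and 13.1% of all genes called higher. Their median log2 fold changes were 1.72 and 1.43, and their sums were 109 to 643 without BDL, 663 to 1530 and 393 to 1252. The call of Marco in anti-miR BDL (edgeR, adjusted p = 0.0499) was lost without no BDL mouse 1, 2, 3 or 4 or anti-miR BDL mouse 2, 3 or 4. Without no BDL mouse 5, Adgre1, Vsig4, Cd5l, Cd68, Csf1r and Cd163 were called there too (edgeR, adjusted p of 0.00949 to 0.0416). In miR-Ctrl BDL the call of Csf1r was lost without no BDL mouse 1, 2, 3 or 4 or miR-Ctrl BDL mouse 2 or 4. That of Cd5l was lost without no BDL mouse 2 or miR-Ctrl BDL mouse 2 or 4. Those of Cd68 and Cd163 were lost without miR-Ctrl BDL mouse 2 (edgeR, adjusted p of 0.0503 to 0.0970 for all 4 genes). Clec4f and Vsig4 were called in that group without no BDL mouse 5. All 8 macrophage markers were negative in sign between the BDL groups (median -0.46, none called), as were 48.8% of all genes. Of the 6 bile duct cell markers 5 were positive in sign between the BDL groups (median 0.54, none called).

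Neutrophil markers, of which S100a8 and S100a9 passed the filter only through the BDL mice, had sums of 3.34 to 14.7 without BDL, 18.4 to 230 in miR-Ctrl BDL and 13.7 to 71.3 in anti-miR BDL. Of 6 mesenchymal markers 4 and 3 were higher, against 19.1% and 13.1% of all genes, with sums of 77.8 to 126, 152 to 534 and 89.0 to 662. Of 6 hepatocyte markers 4 were lower in miR-Ctrl BDL and 2 in anti-miR BDL, against 16.6% and 8.44% of all genes. With library size scaling only Ttr and Cyp2e1 stayed lower, in both groups, while Hnf4a was called higher (0.56 and 0.69). The sum without Cps1 was 95310 to 114028 without BDL, 42248 to 72958 and 37538 to 80239. Between the BDL groups all 6 mesenchymal markers were positive in sign (median 0.44), and 48.8% of all genes were negative. Positive in sign were also 4 of 6 hepatocyte markers (median 0.07) and 1 of 4 neutrophil markers tested (median -0.19), and none was called. The part of these shifts in the values of Gpx2, Nqo1, Hmox1 and Slc7a11, which such cells can express, was not tested.

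Promoters of 8 of the 10 members (10 promoters in all) were read from RefSeq. Beside Srxn1 and Slc7a11, an ARE match was found for Nfe2l2 (-240 to -232), Gclm (-134 to -126) and the second of the 3 promoters of Txnrd1 (-92 to -84), and these letters were not in the windows of Keap1, Nqo1 and Gpx2. Of all 32851 promoters of the same length, 27.8% held an ARE match, 5.20% an AP-1 match and 3.97% an AARE match. Promoters of Gclc and Hmox1 were not analysed here.

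The genes with patterns most like those of Nqo1 and Hmox1 over the 13 mice were found among 12984 genes by the root mean square difference of log2 values, each gene centred on its mean without BDL. For Nqo1 these were Mogat2 (0.46), Ccsap (0.49) and Tmprss2 (0.51), with a median distance over all genes of 1.65. For Hmox1 they were Gfpt2 (0.20), Orm3 (0.27) and Cd300lf (0.27), with a median of 1.89. The 2 lists share no gene.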

How the data were processed

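Polyadenylated liver RNA of 13 mice was made into TruSeq RNA v2 libraries, which do not keep strand, and sequenced as single 50-nt reads on a HiScanSQ. Per the study's methods and the submitters' processing notes, the authors used CASAVA 1.8.2, FastQC and Trim Galore, aligned reads to mm10 with TopHat and compared groups with DESeq2. The counting program and annotation are not given in the sources used here. The authors deposited 3 tables of raw counts per gene, 1 for each pair of groups, that of the 2 BDL groups without the outliers they filtered. No column of per-sample values was left unused (0).

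From the deposited counts, each table was filtered with filterByExpr, scaled by TMM and tested with edgeR 4.0.16 (R 4.3.3, limma 3.58.1, quasi-likelihood, group as the only term). P-values were adjusted by Benjamini-Hochberg over all genes tested, with 0.05 as the threshold. Standard errors are the log2 fold change over the square root of F, and 95% intervals use the t quantile of the test's degrees of freedom. Levels per mouse came from counts identical in the tables (22246 genes), scaled together. Srxn1 was added because its counts agreed within 1%, and Gclm without miR-Ctrl BDL mouse 3. Depth was 12185333 to 19689037 counts per library, and intervals on reads cover counting error only. Nothing in the labels says which mice shared a cage, surgery day or library batch.

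Gene positions follow GRCm38.p6. On simulated counts with 200 genes changed by 2 on the log2 scale, 96.0, 94.0 and 98.0% were recovered in miR-Ctrl BDL and anti-miR BDL against no BDL and between the BDL groups (12877, 12962 and 13599 genes), with 5.88, 2.59 and 7.55% false calls. That change was larger than that of any member between the BDL groups (largest -1.55, Srxn1), and recovery of smaller changes was not tested. Alternatives were DESeq2 1.42.0, other scalings and filters, 1 fit of the 3 groups, mouse number as a block, each mouse left out, and, added after seeing the data, all 4 mice of each BDL group with counts within 1% between tables, the tally without Gpx2, and each mouse left out for the genes of the further lists. Named were all 10 genes, in each comparison the 3 called genes of the pathway list with the largest positive and negative change, up to 3 called genes of each other list, and the 3 nearest patterns to Nqo1 and Hmox1. Others were named after their values were seen, among them genes whose call changed with 1 mouse left out. The genes, lists and rules were chosen with earlier results of these data known. A marker on a cell type list is not reported here and was left out of its sum.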

Additional observations from a re-analysis of the deposited data

Results flagged for a closer look

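In 5 of 28 groups of 4 or 5 mice, the gap between an extreme mouse and its nearest neighbour exceeded Dixon's critical value for the group's range, which chance does in about 1 in 20 groups. Nfe2l2 in anti-miR BDL mouse 2 was 72.7 normalized CPM, and the nearest mouse was 116. Keap1 in anti-miR BDL mouse 1 was 65.5, with 51.8 nearest, and Gclc in the same mouse was 339, with 150.0 nearest. Gclm in no BDL mouse 2 was 121, with 99.8 nearest. Hmox1 in no BDL mouse 5 was 33.2, with 15.1 nearest.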

How the results depend on the processing

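Of the 10 genes, 5 to 10 were called in miR-Ctrl BDL, 3 to 10 in anti-miR BDL and 0 or 1 between the BDL groups under the alternatives, and 7 to 9, 4 to 6 and 0 with 1 mouse left out. Nqo1, Srxn1 and Hmox1 passed with the same direction in both comparisons against no BDL in every setting that gave them a value. Library size alone called 9635 genes in miR-Ctrl BDL, and 10194 genes and 10 members in anti-miR BDL. Library size without the 20 top genes called 4723 genes and 8 members there. Both leave the shift in composition uncorrected (median log2 fold change of all genes 0.34 in both comparisons without the top genes). With 1 fit of the 3 groups 5 members passed in miR-Ctrl BDL, of 8 tested, since Gclm and Srxn1 had no value in settings that need identical counts. Keeping only the BDL mice the authors kept called 4317 genes in anti-miR BDL. DESeq2 called 31 genes and 1 member between the BDL groups. The causes of the last 3 were not tested. Leaving out 1 mouse gave 3775 to 5710 genes in miR-Ctrl BDL, 1261 to 4317 in anti-miR BDL (highest without its mouse 2, lowest without its mouse 3) and 0 to 1 between the BDL groups (1 without anti-miR BDL mouse 3).

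Signs turned for values near 0. In anti-miR BDL against no BDL, Keap1 was 0.80 with library size alone, 0.33 without the top genes, 0.0245 with the mice kept by the authors and -0.12 to 0.0268 with 1 mouse left out. Gclc was 0.73, 0.24 and 0.0424 in the first 3 of these, and -0.58 to 0.0635 with 1 mouse left out. Between the BDL groups Nfe2l2 was -0.0931 in 1 fit of the 3 groups and -0.0919 with all 4 mice of each group (-0.0915 with counts within 1% between tables), and -0.0762 to 0.13 with 1 mouse left out, and Hmox1 was -0.58 to 0.0123.

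Mouse numbers are shared by the groups, and the labels do not say whether they pair the mice. The deviations of same-numbered mice correlated at -0.371 to 0.535, over 0.1 in 2 of 12 pairs. Both were between the BDL groups (mouse 1, 0.535, and mouse 4, 0.219). With so few mice per group these values cannot decide whether numbers mark a shared day or batch. With mouse number as a replicate block 4063, 2195 and 0 genes and 6, 4 and 0 members were called. Under the block Nfe2l2 (0.34) and Gclm (0.43) did not pass in miR-Ctrl BDL (edgeR, adjusted p = 0.0848 and 0.0757), and Keap1 was 0.0172 in anti-miR BDL.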
